A study of Mus musculus with 4 samples.

Results

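The genes described here encode the enzymes of oxidative phosphorylation, the process by which mitochondria turn the energy of nutrients into ATP. They were taken by symbol from the RefSeq annotation of GRCm38.p6, the assembly behind mm10: protein-coding nuclear genes that start with Nduf, Uqcr, Cox4, Cox5, Cox6, Cox7, Cox8 or Atp5, together with Sdha, Sdhb, Sdhc, Sdhd and Cyc1. The rule took 97 of 21887 protein-coding genes. Of these, 87 encode subunits and 10 do not: the 8 complex I assembly factor genes Ndufaf1 to Ndufaf8, the supercomplex factor gene Cox7a2l and Ndufa4l2, a paralogue of Ndufa4.

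Chromatin was taken from the gastrocnemius (calf) muscle of male C57BL/6 mice aged 4 weeks and profiled by CUT&RUN, an assay in which a nuclease tethered to an antibody releases the DNA around the antibody's target. All animals were Phf2 flox/flox. The Ctrl group was Acta1 Cre- and the KO group Acta1 Cre+, where Acta1 is the skeletal muscle actin gene, so that nuclei of cells other than fibres in the tissue may keep Phf2. PHF2 antibody and IgG, a control antibody without a specific target, were each used on both genotypes, in 4 groups of 1 library. With no replicate, every comparison below describes these libraries and not the genotypes, and no test across samples was possible. Whether a library held tissue of 1 animal or several is not given in the sources used here. The deposited PHF2 lists have 1621 peaks in Ctrl and 161 in KO, and the IgG lists have 77 and 152. Total reads are unknown. Peak lists do not show which cells the chromatin came from. Of 9 genes typical of muscle fibres (Acta1, Ckm, Mb, Myh1, Myh2, Myh4, Tnnt3, Actn3 and Pvalb), 0 had a PHF2 peak at a gene end in either genotype. Among all protein-coding genes 5.60% had one in Ctrl and 0.484% in KO, so 0 of 9 says little.

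Electrons from NADH and succinate enter the respiratory chain at complexes I and II, pass through complex III to complex IV, where oxygen is reduced, and the proton gradient built on the way drives complex V, the ATP synthase. Most subunits are encoded in the nucleus and a few in mitochondrial DNA. Skeletal muscle uses this system heavily, and the nuclear factors NRF-1 and GABP (an ETS family factor), the estrogen-related receptors, YY1 and the PGC-1 coactivators are known for driving its nuclear genes. PHF2 is a chromatin protein with a PHD finger, which binds histone H3 methylated at lysine 4 at active promoters, and a JmjC demethylase domain.

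In Ctrl muscle, the PHF2 list had a peak within 1 kb of an end of 7 members: Ndufb1, Ndufs3, Uqcrc1, Uqcrh, Atp5b, Atp5pb and Atp5j. That was 7.22% of 97 (Wilson 95% interval 3.54 to 14.2), against 5.60% of all protein-coding genes, so the share of members lay near the background. All 7 encode subunits, as do 87 of the 97 members, and each gene had a single peak. The KO PHF2 list had 0 members, a count that allows up to 3.81% of members (upper Wilson 95% limit), against 0.484% of all genes. The IgG lists also had 0, against 0.00457% of all genes in Ctrl and 0.0137% in KO. The intervals and limits cover counting error only.

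The sequences next to these peaks are shown because 5 of the 7 lie at a start that faces the start of another gene on the opposite strand. The RefSeq promoter table of GRCm38.p6 gives a strand and a start for 78 of the 97 members, these 7 among them. For Ndufb1, Atp5pb, Ndufs3 and Uqcrh the whole stretch between both starts is printed, on the strand of the member and ending at the base before its start. For Uqcrc1 and Atp5b, which have no coding gene on the other side, the 250 bases upstream are printed. Capitals mark matches, on either strand, to 6 motifs: GCATGCG (NRF-1 core), CCGGAAG (ETS factors with GABP), AAGATGG (YY1), AAGGTCA (core site of the estrogen-related receptors), GGGCGGG (Sp factors) and CACGTG (E-box).
Ndufb1 to Cpsf2, chr12:101975739-101975973, minus strand: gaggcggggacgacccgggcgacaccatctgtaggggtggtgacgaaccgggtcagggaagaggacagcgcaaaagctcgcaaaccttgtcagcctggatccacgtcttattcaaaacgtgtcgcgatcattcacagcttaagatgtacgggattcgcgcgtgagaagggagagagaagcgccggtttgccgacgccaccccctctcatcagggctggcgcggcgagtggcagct
Ndufs3 to Kbtbd4, chr2:90904722-90904739, minus strand: gagtcactgcacatttcc
Uqcrh to Lrrc41, chr4:116075071-116075268, minus strand: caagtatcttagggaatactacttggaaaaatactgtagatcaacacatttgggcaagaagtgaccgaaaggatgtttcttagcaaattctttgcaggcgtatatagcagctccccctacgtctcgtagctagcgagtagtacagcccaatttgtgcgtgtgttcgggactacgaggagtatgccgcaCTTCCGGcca
Atp5pb to Wdr77, chr3:105959264-105959497, minus strand: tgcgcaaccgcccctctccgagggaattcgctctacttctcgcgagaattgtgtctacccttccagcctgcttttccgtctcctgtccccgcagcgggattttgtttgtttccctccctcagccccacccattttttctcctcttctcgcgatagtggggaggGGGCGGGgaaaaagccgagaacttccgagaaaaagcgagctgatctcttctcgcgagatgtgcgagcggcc
Uqcrc1, chr9:108936398-108936647, plus strand: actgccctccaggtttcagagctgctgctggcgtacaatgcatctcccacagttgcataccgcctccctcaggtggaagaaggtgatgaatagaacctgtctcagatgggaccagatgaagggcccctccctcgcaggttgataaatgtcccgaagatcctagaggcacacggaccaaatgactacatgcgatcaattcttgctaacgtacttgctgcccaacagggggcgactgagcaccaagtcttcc
Atp5b, chr10:128083057-128083306, plus strand: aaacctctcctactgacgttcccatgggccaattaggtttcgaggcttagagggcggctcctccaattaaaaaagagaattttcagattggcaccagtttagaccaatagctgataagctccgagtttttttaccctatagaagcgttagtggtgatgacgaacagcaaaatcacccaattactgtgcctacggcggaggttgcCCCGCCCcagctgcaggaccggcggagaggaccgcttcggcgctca

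Further motif matches lay outside these stretches, and for each gene the last one in the promoter window is shown with 30 bases around it. Atp5j has a second start in the promoter table, 84834976, and the first and the last match of that window are shown too. The window runs from 250 bases before to 50 after a start, with the start as base 1.
Uqcrc1, chr9:108936668-108936697, plus strand: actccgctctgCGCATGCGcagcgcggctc
Ndufs3, chr2:90904703-90904732, minus strand: tgcacatttccaCTTCCGGtccgtgccctt
Atp5pb, chr3:105959248-105959277, minus strand: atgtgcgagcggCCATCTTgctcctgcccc
Atp5j, chr16:84835697-84835726, minus strand: cgcacagcctctCCCGCCCctccccaccag
Atp5j, second start, chr16:84835106-84835135, minus strand: caggccagaataCGCATGCGtacagtgcag
Atp5j, second start, chr16:84835020-84835049, minus strand: tagctgagggacCCGGAAGcacttaccctc
The stretch at Uqcrc1 holds the NRF-1 core on both strands, overlapping from base 32 to base 39. At the second start of Atp5j the same letters run from base -147 to base -140, inside the Atp5j peak and next to the start of Gabpa, and the ETS letters from base -61 to base -55, outside the peak. That window also holds the YY1 letters. The ETS match of Ndufs3 runs from base 2 to base 8 and that of Uqcrh from base -10 to base -4. Atp5pb has the YY1 letters across its start, from base -2 to base 5. The window of Ndufb1, the member with the highest fold enrichment, held none of the 6 motifs, which says only that these letters are not in that window.

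By complex, the 7 genes fell into complexes I, III and V. Ndufa4 was counted in complex IV, and Ndufb4b and Ndufb4c were counted in complex I. Complex I had 2 of 39 subunit genes at a Ctrl PHF2 peak, complex II 0 of 4, complex III 2 of 9, complex IV 0 of 18 and complex V 3 of 17. The assembly factors and other members that are not subunits had 0 of 10. The share over all protein-coding genes was 5.60%. With 0 to 3 genes at a peak in each, the counts do not set one complex apart from another.

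**Figure D1:**
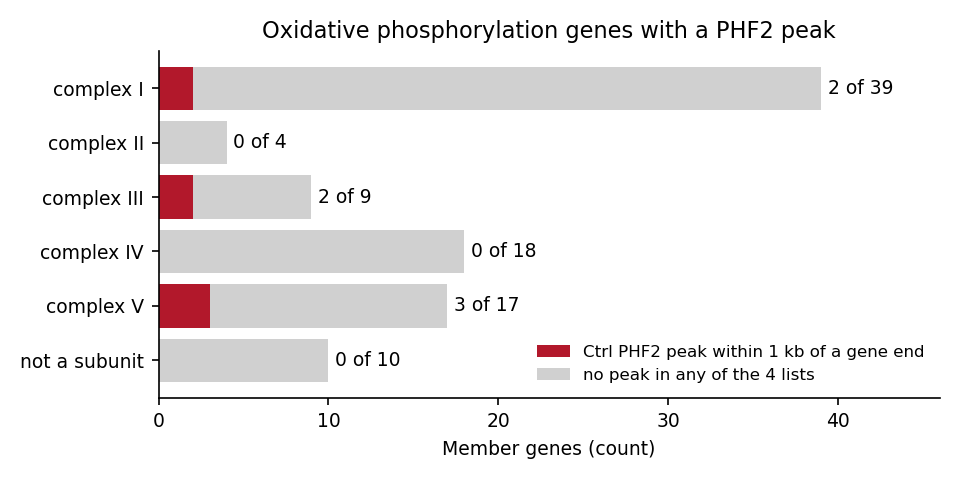
Horizontal bars give the number of member genes in each respiratory complex (x axis, count), with genes that have a Ctrl PHF2 peak within 1 kb of an end in red and genes with no peak in grey. Red is seen in complexes I (2 of 39), III (2 of 9) and V (3 of 17). The share over all protein-coding genes was 5.60%.

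Within complex I, the peak with the highest fold enrichment was at Ndufb1 (Gene ID 102631912), which encodes an accessory subunit of the membrane arm. It ran from 101975470 to 101976140 on chromosome 12, and the gene runs from 101968096 to 101975738. The authors' fold enrichment, a ratio of the signal at the peak's highest point (its summit) to the caller's local background, was 9.20 with a -log10 q of 9.07, which ranked 147 of 1621. The summit held 18 tags (exact Poisson 95% interval 10.7 to 28.4). The tag is the unit the caller counted at the summit, and its whole number was recovered from the authors' fold and -log10 p. Whether a tag was a single read or a whole fragment is not given in the sources used here. The handling of duplicates is not given either, so tags may include PCR copies, and the intervals treat each tag as independent. The peak covered the start of Ndufb1, with the summit 2 bp upstream of it, and also the annotated start of Cpsf2, a subunit gene of the mRNA cleavage and polyadenylation complex, which leaves on the opposite strand. Only 20 bp separate both gene models, and the promoter table places the Cpsf2 start 236 bp from that of Ndufb1.

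Ndufs3 (Gene ID 68349), a core subunit gene of complex I, had a peak from 90904163 to 90904666 on chromosome 2, near the start of a gene that runs from 90894627 to 90904721. Its fold enrichment was 6.24, its -log10 q 4.02 and its rank 865 of 1621. The summit held 12 tags (6.20 to 21.0), the fewest of the 7. The start of Kbtbd4, a gene for a BTB and kelch domain protein, lay 19 bp from that of Ndufs3 in the opposite direction, with a further Kbtbd4 start at 281 bp. The peak did not cover this gap: it began 55 bp inside Ndufs3, with the summit 315 bp from its start.

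Uqcrc1 (Gene ID 22273), a gene for one of the core proteins of complex III, had the second highest fold enrichment of the 7, at 7.89, with a -log10 q of 6.70 and rank 316. The peak, from 108936626 to 108937211 on chromosome 9, covered the start of the gene, which runs from 108936648 to 108949641. Its summit had 15 tags (8.40 to 24.7) and lay 183 bp into the gene. No other annotated gene, coding or not, had an end within 1 kb of it. The NRF-1 letters printed above lie inside this peak, between its lower edge and the summit.

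Uqcrh (Gene ID 66576), which encodes the hinge protein of complex III, had a peak from 116074483 to 116074905 on chromosome 4, with a fold enrichment of 5.37, a -log10 q of 3.18 and rank 1243. The summit had 15 tags (8.40 to 24.7), as many as that of Uqcrc1. It lay 300 bp inside the gene, which runs from 116066965 to 116075070, and the peak was the narrowest of the 7, at 423 bp. The facing gene is Lrrc41, which encodes a leucine-rich repeat protein and starts 199 bp away on the opposite strand.

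The 3 peaks of complex V were at Atp5pb, Atp5b and Atp5j. Atp5pb (Gene ID 11950) encodes subunit b of the peripheral stalk, which holds the F1 head of the ATP synthase in place. Its peak ran from 105958775 to 105959259 on chromosome 3, ending 4 bp inside the gene (105942698 to 105959263), with a fold enrichment of 5.85, a -log10 q of 4.34, rank 1052 and 18 tags (10.7 to 28.4). Its tag number equalled that of Ndufb1. Wdr77, the gene of a cofactor of the arginine methyltransferase PRMT5, starts 235 bp away in the opposite direction.

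Atp5b (Gene ID 11947) encodes the catalytic beta subunit of the F1 head. Its peak, from 128083694 to 128084317 on chromosome 10, lay wholly inside the gene (128083307 to 128090388), starting 387 bp from its start, with the summit at 469 bp. The fold enrichment was 4.72, the -log10 q 2.36, the rank 1460 and the summit had 13 tags (6.92 to 22.2). No coding neighbour shared it, but the small nucleolar RNA gene Snord59a lies under the peak, inside Atp5b, and the microRNA gene Mir677 has an end within 1 kb.

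Atp5j (Gene ID 11957) encodes the coupling factor 6 subunit of the peripheral stalk. Its peak ran from 84835077 to 84835597 on chromosome 16 and was among the weakest of the list, with a fold enrichment of 3.80, a -log10 q of 1.69 and rank 1610 of 1621. Its summit held 16 tags (9.15 to 26.0), more than those of Uqcrc1 and Ndufs3, though within the counting error. The facing gene is Gabpa, which encodes the DNA-binding subunit of GABP. The annotated models of Atp5j (84827871 to 84835857) and Gabpa (84834891 to 84863783) overlap head to head by 967 bp. The summit lay 285 bp from the nearer start of Atp5j in the promoter table and 216 bp from the start of Gabpa, inside both models, so the peak cannot be given to one of them.

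The order of the 7 by fold enrichment was not their order by tags. Summit tags ran from 12 to 18 with overlapping intervals, so the 7 peaks did not differ in tags beyond counting error. The local background used by the caller, recovered in the same way and given in tags on the control's scale, was 0.361 at Uqcrc1, 0.380 at Ndufb1 and 0.409 at Ndufs3. It was 1 at Uqcrh and Atp5b, 1.17 at Atp5pb and 2 at Atp5j, against a median of 0.584 over the 1151 Ctrl PHF2 peaks at gene ends. The 3 members with the highest fold thus had the lowest backgrounds, and the member with the lowest fold had the highest one. Since the fold is computed from that background, the ranks above rest in part on it. The 0.361 at Uqcrc1 is the lowest background over the 1151 peaks and is shared by many of them. The member backgrounds amount to 2 control tags or fewer, and no interval for their counting error was computed.

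**Figure D2:**
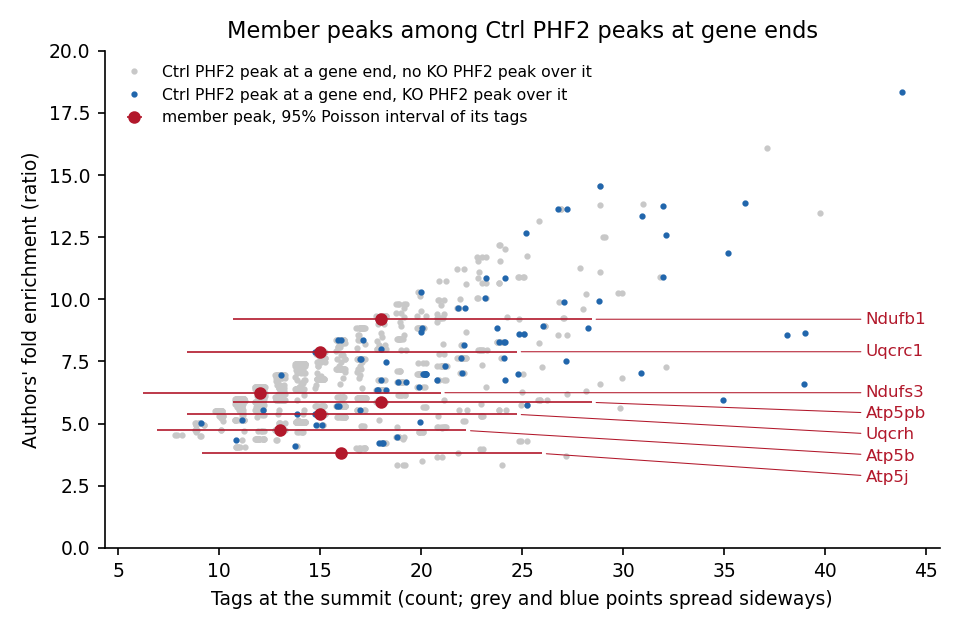
Each point is a Ctrl PHF2 peak at a gene end, by tags at the summit (x axis, count) and the authors' fold enrichment (y axis, ratio). Members are red, with 95% Poisson intervals of their tags, and blue marks peaks that a KO PHF2 peak overlaps. The 7 members lie between 12 and 18 tags and between fold 3.80 and 9.20, and none is blue.

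As a group, the member peaks were of similar width and tag number to other Ctrl PHF2 peaks at gene ends and had a lower median fold enrichment. Their median fold enrichment was 5.85 (3.80 to 9.20), against 6.45 over all 1151, their median width 521 bp (423 to 671) against 516, and their median tag number 15 in both. Their median -log10 q was 4.02, against 5.01, and 5 of the 7 ranked in the weaker 50% of the 1621 peaks by fold enrichment. No member peak was among the wide ones, which reached 4393 bp. All 7 lay within 1 kb of the gene's 5' end and none at the 3' end only. The same held for 967 (98.2%) of the 985 genes with a Ctrl PHF2 peak whose strand is known. For 6 of the 7 peaks the summit lay downstream of the nearest start, against 77.8% of the gene-end peaks for which a start within 5 kb could be found, and the median offsets were 216 and 235 bp.

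Sharing with a neighbour was more frequent among members than over all genes. The peak was within 1 kb of an end of another coding gene for 5 of the 7 members (71.4%), against 315 of the 1225 genes with a Ctrl PHF2 peak (25.7%). In each of the 5 the neighbour stood head to head with the member on the opposite strand. Opposite-strand starts nearby were more frequent among members in general. Of the 78 members in the promoter table, 24 (30.8%) have a coding start on the opposite strand within 1 kb. The share was 9.61% of the 17492 coding genes in it. Such a start, called a facing start here, could lie on either side, so these counts are not limited to head-to-head pairs. Among those 24 members, 5 had a Ctrl PHF2 peak (20.8%), and among the other 54 members 2 had one (3.70%). Over all genes the shares were 11.9% with a facing start and 4.96% without. Under the 1 kb rule, a peak near 1 of 2 facing starts can count for both genes. Counted by peak, sharing was 5 of the 7 member peaks, against 165 of all 1151 gene-end peaks (14.3%). How far the rule shapes the shares by gene was not tested. These are counts of few genes in 1 library and carry no test.

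Most members with a facing start had no peak. These were 19 of the 24, among them Sdha facing Ccdc127, Sdhd facing Timm8b, Uqcr10 facing Zmat5, Ndufb5 facing the mitochondrial ribosomal protein gene Mrpl47, Ndufa7 facing Rps28 and Atp5h facing Kctd2. At 3 of the 5 shared peaks the whole peak lay on the member's side of the pair of starts: it began 4 bp inside Atp5pb, 55 bp inside Ndufs3 and 165 bp inside Uqcrh, and covered no part of Wdr77, Kbtbd4 or Lrrc41. Only at Ndufb1 did the peak extend over both starts. At Atp5j the gene models overlap, and the peak lay within both genes: it covered the start of Gabpa in the promoter table and ended 28 bp short of the nearer start of Atp5j.

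**Figure D3:**
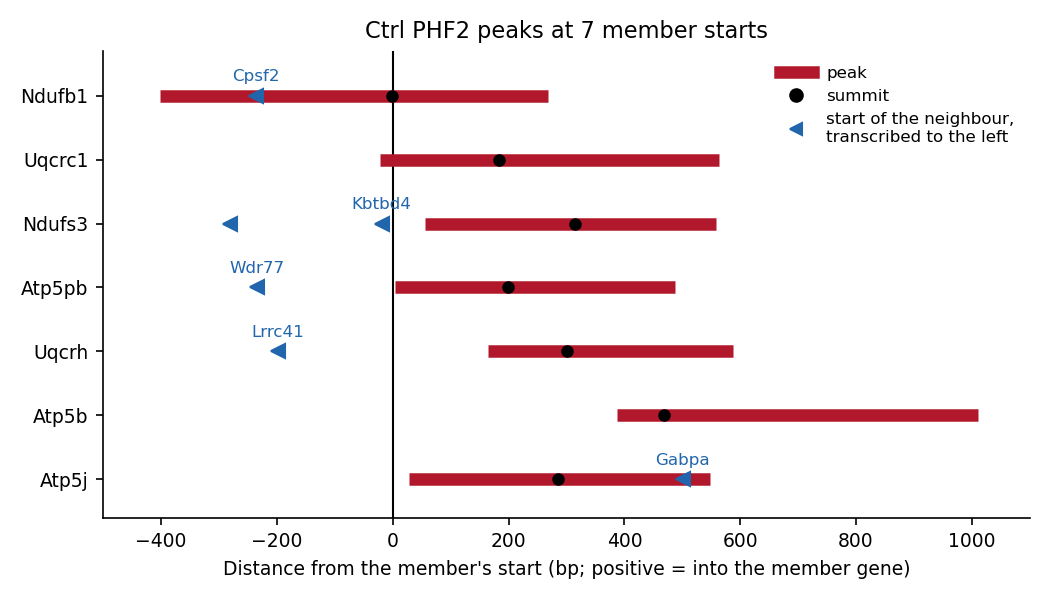
The 7 Ctrl PHF2 peaks (red bars) are drawn by distance from the member's start in bp (x axis, positive into the member gene), with summits as black points and the starts of facing genes as blue triangles. At Ndufs3, Atp5pb and Uqcrh the bar lies to the right of 0 and the triangle to the left, while at Ndufb1 the bar covers both.

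CpG content was similar in members with a peak and members without. The number of CpG dinucleotides per 300-base window had a median of 20.5 (15 to 43) in the 8 windows of the 7 genes with a peak and of 20 (2 to 39) in 75 windows of 71 members without. Over all coding genes the median was 13, and over genes with a Ctrl PHF2 peak it was 25. Of the 83 member windows, 70 were above the median of all coding genes and 11 below it. The summits of all but Ndufb1 lie outside the windows, so these windows describe the starts and not the sequence under the summits, which was not analysed here.

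**Figure D4:**
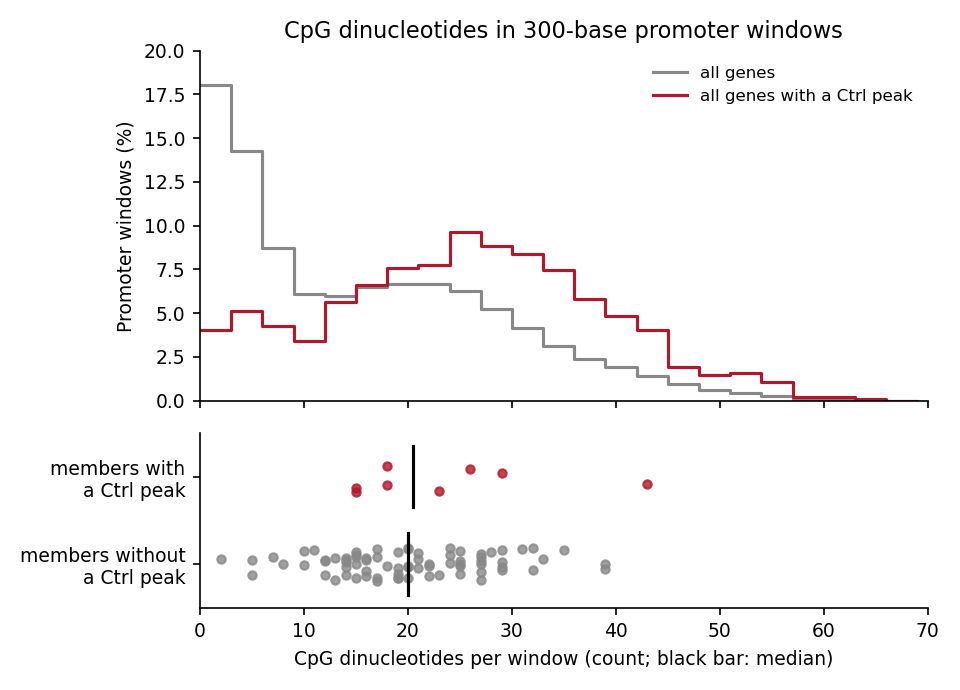
The upper panel gives the share of promoter windows (y axis, %) by CpG dinucleotides per window (x axis, count) for all coding genes and for those with a Ctrl PHF2 peak. The lower panel shows each member's windows, with medians of 20.5 (with a peak) and 20 (without) as black bars.

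Motif letters known from this gene family were more frequent in members than in all 21263 windows of coding genes. The NRF-1 core was in 13 of the 83 member windows (15.7%, against 4.44%), the ETS letters in 19 (22.9%, against 11.6%), the YY1 letters in 12 (14.5%, against 6.24%) and the estrogen-related receptor core site in 8 (9.64%, against 4.08%). The Sp letters (34.9%, against 33.9%) and the E-box (8.43%, against 7.84%) were close to all genes. In the 8 windows of members with a peak the NRF-1 core was found in 2, the ETS letters in 3, the YY1 letters in 2, the Sp letters in 4, the E-box in 1 and the receptor core site in 0. These numbers are too small to set beside the other members. A match is a description of the letters and does not show binding.

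None of the 7 member peaks was overlapped by a KO PHF2 peak. Genes with such a Ctrl peak, not overlapped in KO, were thus again 7.22% of members, against 5.23% of all genes. The share of all 1151 gene-end peaks with a KO counterpart was 7.47%, and it was 2.45% (6 of 245) among those with summit tags and widths within the members' ranges. A count of 0 of 7 allows a share of up to 41.0% (exact binomial 95% limit), so the members were not told apart from other Ctrl peaks in this respect. The peaks of Atp5b and Atp5j had a -log10 p of 5.95 and 5.08, under the 6.19 of the weakest KO PHF2 peak, so their absence from the KO list carries less weight than that of the other 5. Tags of the KO library at these places are not in a peak list, and no peak called is not the same as no signal. The nearest KO PHF2 peak to a member peak lay 2413 kb away, on the chromosome of Ndufb1. Over all 97 genes the KO PHF2 peak nearest to a gene end was 134 kb from Cox5b.

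The other 90 members had no peak at a gene end in any of the 4 lists, nor elsewhere in the gene. Among them were all 4 genes of complex II, succinate dehydrogenase, whose nearest Ctrl PHF2 peaks lay 458 kb (Sdha), 566 kb (Sdhb), 261 kb (Sdhc) and 55.7 kb (Sdhd) away. Cyc1, the cytochrome c1 gene of complex III, was 595 kb from one. In complex IV, the heart and muscle isoform genes Cox6a2, Cox7a1 and Cox8b had none, and neither did Cox6a1, Cox7a2 and Cox8a, the forms found in most other tissues. The median distance of the 90 genes to a Ctrl PHF2 peak was 302 kb.

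Only 1 of these 90 genes had a Ctrl PHF2 peak within 5 kb of an end. It was Ndufv2, a core subunit gene of complex I, 1.79 kb from a peak at 66076528 to 66077005 on chromosome 17, with a fold enrichment of 6.94. That peak lies beyond the 3' end of Ndufv2 and 41 bp from the start of Ankrd12 in the promoter table. The next nearest were Cox6a1 (18.3 kb, from a peak at the splicing factor gene Srsf9), Uqcrb (27.5 kb, at Mterf3 and Ptdss1), Ndufs1 (28.8 kb, at Ino80d) and Atp5h (33.4 kb, at Cdr2l). Ndufv2 was thus the nearest member outside the 1 kb window, and the farthest inside it was Atp5b, at 387 bp from the peak.

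A list of other pathway genes held mainly assembly factors, coenzyme Q enzymes, electron carriers and inner or outer membrane transporters, and also Opa1 and Immt. These 73 genes gave a similar share. A Ctrl PHF2 peak was at 4 of them (5.48%, Wilson interval 2.15 to 13.3, against 5.60% of all genes), and 0 had a KO PHF2 or IgG peak, against 0.484%, 0.00457% and 0.0137% of all genes. Tmem70, an assembly factor gene of the ATP synthase, had a fold enrichment of 7.41 with 14 tags. Slc25a4, the gene of the ADP/ATP carrier of heart and muscle, had 6.76 with 18 tags. Lyrm7, an assembly factor gene of complex III, had 5.50 with 10 tags, and the outer membrane channel gene Vdac1 had 5.05 with 14 tags. None of these 4 peaks was overlapped by a KO PHF2 peak, and none was shared with a coding neighbour, unlike 5 of the 7 member peaks. The other 69 genes, with all of the coenzyme Q and complex IV assembly genes of the list, had no peak.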

How the data were processed

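CUT&RUN libraries (1 per group) were grouped by sample title. The tools and build were Bowtie2, MACS2 and mm10, per the submitters' processing notes; for versions, settings and the control library, nothing is given in the sources used here. Each peak name holds 1 library, so calling was done library by library. The deposited files have 10 columns: the authors' fold enrichment (a ratio), -log10 p, -log10 q, a deposited score (not used) and the summit.

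Starts were written 1-based. A peak within 1 kb of either annotated gene end counted, and overlap meant at least 1 bp. Tags were solved from MACS2's fold, (pileup + 1) / (background + 1), and Poisson p. Every pileup was, within 0.005, a whole tag number multiplied by 0.649 (309 distinct value pairs in Ctrl) or 0.609 (84 in KO). Of these pairs, 20 and 3 allowed 2 solutions, and the one nearest to a whole number was taken among those whose background was not below the lowest found. The linking and tag scripts were tested on simulated data. Members and lists were chosen with earlier results of these data known. All members with a peak, the 5 members nearest to one without having one, the Sdh genes and Cyc1 are named. Isoforms and pairs without a peak were chosen for naming with their values known. The alternatives tried were other windows, summits, thresholds, overlaps, subunits alone and gene bodies. Computation used pandas 2.3.3, SciPy 1.17.1 and NumPy 2.4.6 under Python 3.11.15, and figures were drawn with matplotlib 3.10.9.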

Additional observations from a re-analysis of the deposited data

How the results depend on the processing

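The count of 7 members at a Ctrl PHF2 peak fell to 2 (Ndufb1 and Uqcrc1) when the peak had to cover the gene end itself (1.96% of all genes) and to the same 2 in the stronger 50% of the list (3.04%). It was 5, without Atp5b and Atp5j, at a -log10 q of at least 3 (4.98%) and at the lowest -log10 p of the KO PHF2 list (5.11%), 7 with 500 bp windows (4.85%), the summit (5.20%) and gene bodies (6.88%), and 8, with Ndufv2, at 2000 bp (6.15%) and 5000 bp (6.78%). It was also 7 with subunits alone (8.05% of 87, against 5.60% of all genes). With starts of the promoter table, which covers 78 members, it was 7 too. That setting was chosen after seeing the data, and no share over all genes is given for it here. KO PHF2 and IgG counts of members stayed at 0 under every alternative run. Sharing with a neighbour was 5, or 6 with noncoding genes. No paired analysis was possible because there is 1 library per group, for which reason none was left out either. Read totals are unknown, and how the counts depend on depth was not tested.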

Other observations

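Subunits of complexes I, III, IV and V that are encoded in mitochondrial DNA fall outside the rule. The mitochondrial chromosome held 0 peaks in both PHF2 lists, 5 in Ctrl IgG and 3 in KO IgG. The IgG peaks overlapped 5 of its 13 protein-coding genes in Ctrl (ND1, ND5, ND6, COX1 and CYTB) and 4 in KO (ND1, ND5, ND6 and CYTB), with fold enrichments from 1.47 to 2.02 in Ctrl and from 1.45 to 2.06 in KO.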
